A study of Homo sapiens with 3 samples.

Results

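KYSE150 cells that had received the wild-type LOXL2 plasmid were compared with KYSE150 cells that had received the vector, over the genes that were bright enough on the array to be read. KYSE150 is an established human oesophageal squamous carcinoma line. The series holds 3 arrays with 1 array per group, and 2 of these 3 arrays are compared here. The Control array carries RNA from cells given the vector alone. The LOXL2 WT array carries RNA from cells given pcDNA3.1 LOXL2 WT, and the LOXL2 delta72 array carries RNA from cells given pcDNA3.1 LOXL2 delta72, a form that the labels do not describe further. All cells were of the same line and were lysed 48 hours after transfection, and 100 ng of total RNA was copied to biotinylated cRNA on an Affymetrix 3' array. The transfection was not followed by a stated selection, so each array reads the mixture of cells that took up plasmid and cells that did not, and fewer cells with a transcript cannot be told apart from less transcript per cell.

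Each gene was represented by its brightest probe set that carries a single gene symbol, chosen on the mean of the 3 arrays. A gene was kept where that mean was at least log2 5.27, the 40th percentile over the array's probe sets without its controls. This left 12232 of the 18132 genes with such a probe set. LCE2B, a cornified envelope gene, was the last gene kept, and it read log2 5.47 on the Control array and 5.15 on the LOXL2 WT array. COL27A1, a collagen gene, was the first gene left out, with log2 5.41 and 5.23. Every difference below is the deposited log2 value of the LOXL2 WT array minus that of the Control array, so a difference of 1 is 2-fold. With 1 array per group there is no spread between cultures and no test, and "higher" and "lower" describe these arrays. The only error that can be given is the standard deviation (SD) of the difference over the probe sets of one gene on the same arrays, which was 0.17 when pooled over the 7163 genes with more than 1 probe set above the filter. It does not cover differences between cultures, transfections or hybridisations. Wherever a gene's probe sets are counted, those with a mean at or above the same filter are meant.

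LOXL2 belongs to the lysyl oxidase family of secreted, copper-dependent amine oxidases. These enzymes oxidise lysine side chains of collagens and elastin, which lets the fibres cross-link. LOXL2 enters the secretory pathway through the endoplasmic reticulum, is also found inside cells and in the nucleus, and has been studied in squamous carcinoma for its part in the change of epithelial cells toward a mesenchymal state.

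The arrays read as a squamous epithelial line. Markers were counted where they had a probe set with a single gene symbol, as 8 of 11 listed squamous and 6 of 7 listed leukocyte markers did. All 8 squamous markers so counted passed the filter, among them KRT5 at log2 11.62 on the Control array and 11.52 on the LOXL2 WT array. The mean of these markers was log2 9.46 on Control, 9.12 on LOXL2 WT and 9.08 on LOXL2 delta72, and 7 of the 8 were lower on LOXL2 WT than on Control. The glandular markers were all below the filter (0 of 6), as were 7 of 8 fibroblast markers. Of the endothelial markers 3 of 6 passed, with means of log2 4.95 and 4.96 on Control and LOXL2 WT. Of the leukocyte markers 2 of 6 passed, CD3E at log2 5.55 and 5.34 and CD68 at 8.97 and 8.44. CD68 was thus brighter than the squamous marker KRT14 (7.76 and 7.08), while the leukocyte gene PTPRC read log2 2.83 and 3.05. The arrays' own controls were slightly lower on LOXL2 WT: the median difference was -0.10 over 23 background probe sets, -0.09 over 18 hybridisation spikes and -0.11 over 24 poly-A spikes. The background probe sets ranged from -0.29 to 0.03, and their differences mostly fell as the G and C bases in the probes rose. They differed by 0.03 at 5 such bases, -0.10 at 14 and -0.29 at 24. The base content of the gene probe sets was not used here. The 5' minus 3' value of ACTB, a measure of RNA integrity and labelling, was -1.26 on Control and -1.46 on LOXL2 WT, while that of GAPDH was 0.01 and 0.00. The part of these shifts in the gene differences was not tested. List medians between -0.29 and 0.03 lie within the range of the background probe sets, which holds every negative list median given below except that of the inflammatory caspase list, while most positive ones lie above it.

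Over the 12232 genes the differences were small and nearly centred. The LOXL2 WT value was above the Control value for 5876 genes (48.0%) and below it for 6329 genes (51.7%), with a median difference of -0.01 and an SD over genes of 0.26. A difference of at least 1.5-fold was found upward for 226 genes (1.85%) and downward for 106 genes (0.867%). At least 2-fold, 22 genes were higher (0.180%) and 12 were lower (0.0981%). These shares over all genes are the ones to read beside each list count below. When both arrays were moved to a common median of the genes kept, a shift of 0.04, the split at 1.5-fold became 169 higher and 139 lower, and at 2-fold it became 17 and 17. Quantile normalization gave 200 higher and 119 lower at 1.5-fold and 23 and 11 at 2-fold, and lowess scaling gave 224 and 106, and 25 and 11. The excess of higher genes at 2-fold was therefore absent under the common median and present under the other scalings tried. When the genes were divided into 5 equal classes of mean level, the class medians ran from -0.08 in the dimmest class to 0.04 in the class below the brightest.

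**Figure D1:**
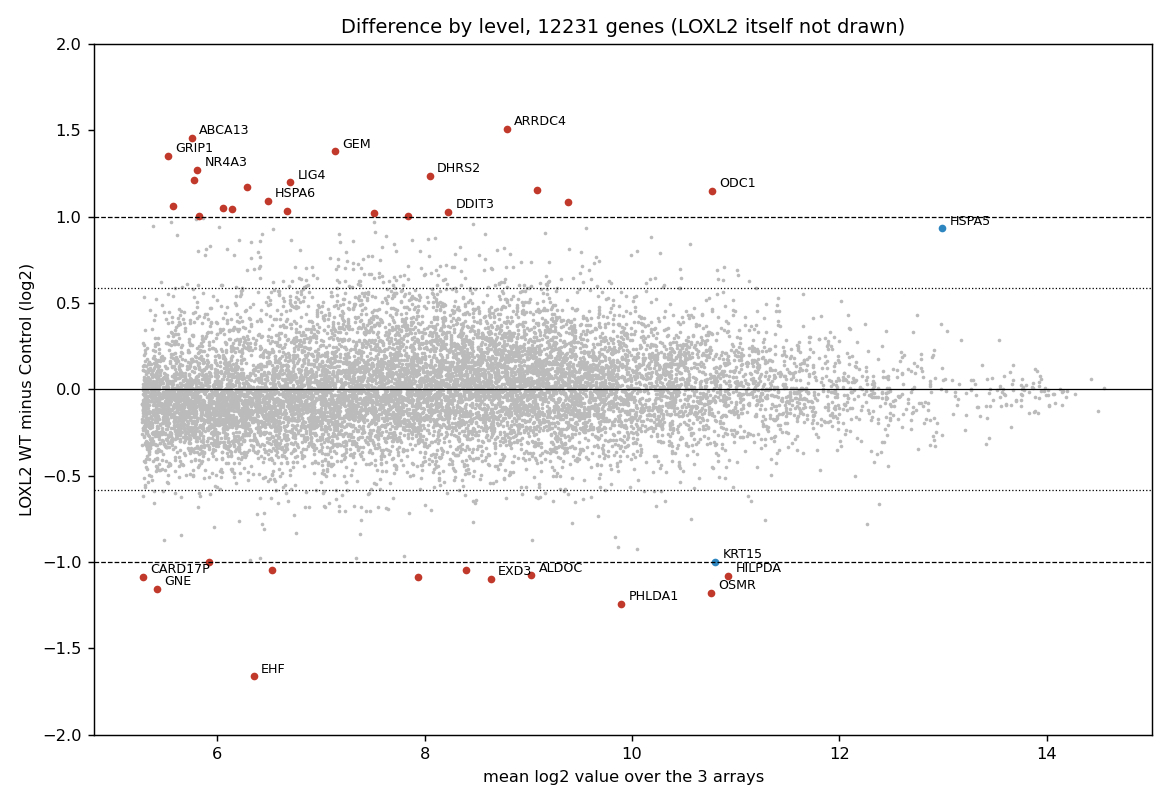
The difference between the LOXL2 WT and Control arrays (log2, vertical axis) is plotted against the mean log2 value over the 3 arrays (horizontal axis) for every gene kept except LOXL2. Dotted and dashed lines mark 1.5-fold and 2-fold, red points are the 2-fold genes, and HSPA5 and KRT15 (blue) are bright genes just inside the 2-fold lines.

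LOXL2 itself was read first because it checks the label of the vector array. At its brightest probe set the vector cells gave log2 7.46, against 14.05 for LOXL2 WT and 14.06 for LOXL2 delta72, so that both LOXL2 arrays stood far above the vector. Both LOXL2 arrays read nearly alike there, so this reading cannot tell the LOXL2 WT label from the LOXL2 delta72 label. The difference was 6.59, or 96.1-fold. Another probe set gave log2 5.06 on Control and 10.22 on LOXL2 WT, and a dimmer one gave 5.38 and 8.07. The remaining one, 11718832_a_at, read log2 8.81 on Control and 8.32 on LOXL2 WT, a difference of -0.48. The median of the 4 LOXL2 probe sets was 3.93 and their SD was 3.10, so the fold depends on the probe set read. The positions of these probe sets in the transcript were not used here.

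The other lysyl oxidases were read in the same cells. LOXL4 was log2 6.95 on Control, 6.33 on LOXL2 WT and 5.97 on LOXL2 delta72, a difference of -0.63, with -0.36 at its other probe set. LOXL3 read 5.65, 5.25 and 5.29 on the same arrays. LOX, the founding member of the family, read 6.21, 6.15 and 6.07, and LOXL1 read 6.46, 6.65 and 6.56. LOXL4 was thus the one other family member past 1.5-fold, in the opposite direction to LOXL2. Among copper-handling genes 12 of 17 were lower (median -0.12), none past 1.5-fold, and the metallothionein MT1G was the farthest at -0.58, while the copper pump ATP7A was 0.38 higher.

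Genes of collagen processing, the extracellular matrix and matrix proteolysis showed few large differences. Of the collagen hydroxylases and collagen chaperones, 9 of 15 were lower, with a median of -0.06 and none past 1.5-fold; FKBP10, a collagen-folding isomerase, was the lowest at -0.42. Of 26 extracellular matrix genes, 12 were higher and 14 lower, and 3 were at least 1.5-fold higher (1.85% of all genes were). These were TNC (tenascin C), at log2 7.85 on Control and 8.63 on LOXL2 WT, SPOCK1, a secreted proteoglycan, at 5.86 and 6.58, and COL5A2, a fibrillar collagen chain, at 5.69 and 6.29. The matrix proteases and their inhibitors lay on the other side, with 14 of 17 lower and a median of -0.28. Among them MMP28 read 7.29 and 6.61, MMP14 read 10.01 and 9.44, MMP2 read 7.19 and 6.77, and PLAU (urokinase) read 11.54 and 11.04. PLAU was lower at all 3 of its probe sets, whereas MMP14 and MMP28 each had a probe set near 0. MMP28, a secreted metalloprotease of epithelia, was the one member of that list past 1.5-fold, downward (0.867% of all genes were).

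The folding machinery of the endoplasmic reticulum (ER) had more higher than lower members. Of 24 ER chaperones and folding enzymes, 17 were higher and 7 lower, with a median of 0.17 against -0.01 over all genes, and 5 were at least 1.5-fold higher (1.85% of all genes were). HSPA5 (BiP, the main ER chaperone) read log2 12.28 on Control, 13.22 on LOXL2 WT and 13.47 on LOXL2 delta72. All 6 of its probe sets were higher, by 0.93 to 1.64. Every HSPA5 probe set thus gave the same direction, and the LOXL2 WT value lay between the other arrays. DNAJB11, an ER co-chaperone, read 9.71, 10.50 and 10.60, DNAJC3 read 7.30, 8.02 and 8.20, and DNAJB9 read 8.31, 8.94 and 9.05. HYOU1, a large ER chaperone, read 8.81, 9.40 and 9.61. Of its 6 probe sets, those at -0.04, 0.03 and 0.09 were near 0. Smaller differences were read for SDF2L1 (0.54), CRELD2 (0.51), HSP90B1 (0.28) and CALR (0.07). The lowest member of the list differed by -0.39.

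Genes of ER-associated degradation, which returns misfolded proteins to the cytosol, had 15 of 25 higher, with a median of 0.07. Among them 3 were at least 1.5-fold higher (1.85% of all genes were). HERPUD1, a membrane protein of that pathway, read log2 9.40 on Control, 10.28 on LOXL2 WT and 10.86 on LOXL2 delta72, and all 3 of its probe sets were higher by at least 0.64. AUP1 and SELENOS, which work with the same membrane complex, were 0.71 and 0.63 higher, each with a second probe set at 0.11 and 0.17. Of 43 genes of ER translocation and vesicle transport, 23 were higher (median 0.04, which became -0.0018 under a common median of the arrays). Those at least 1.5-fold higher (1.85% of all genes were) were SEC11C, a signal peptidase subunit, at 0.74, and SRPRB, a subunit of the signal recognition particle receptor, at 0.69. The LOXL2 delta72 array, compared with the same Control array, had a median of 0.32 over the ER chaperones where LOXL2 WT had 0.17. Since one Control array enters both differences, a low or high reading there moves both.

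Promoters of the ER genes were searched because most of this group was higher and a shared element is known for it. The ER stress element (CCAAT and CCACG with 9 bases between them) and its second form (ATTGG and CCACG with 1 base between them) were sought on both strands in RefSeq promoters of GRCh38.p14, each 250 bases before to 50 bases after the gene start. The first form was found in 22 of 27305 promoters (0.0806%) and in 0.141% of those of genes above the filter. It was found in 6 of the 22 ER chaperone promoters that were available, those of CALR, CANX, CRELD2, ERO1B, HSP90B1 and HSPA5. The second form was found in 15 promoters (0.0549%), among them HYOU1, SDF2L1 and HERPUD1, and in 0.121% of those of genes above the filter. Stretches that end before the gene start are printed 5' to 3' on the gene's strand, with the match in capitals, and a match on the other strand reads as the reverse complement.
HSPA5, chr9:125241361-125241439, minus strand: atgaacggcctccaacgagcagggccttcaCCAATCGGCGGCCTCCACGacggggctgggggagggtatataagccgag
HSP90B1, chr12:103930186-103930264, plus strand: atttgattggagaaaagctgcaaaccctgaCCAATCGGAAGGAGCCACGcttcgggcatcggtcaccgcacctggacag
CRELD2, chr22:49918524-49918602, plus strand: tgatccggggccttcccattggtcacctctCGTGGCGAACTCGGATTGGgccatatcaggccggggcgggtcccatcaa
CALR, chr19:12938359-12938432, plus strand: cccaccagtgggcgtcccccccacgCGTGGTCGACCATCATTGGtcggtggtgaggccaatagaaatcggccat
HERPUD1, chr16:56931995-56932065, plus strand: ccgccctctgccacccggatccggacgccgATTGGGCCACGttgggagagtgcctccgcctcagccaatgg
HYOU1, chr11:119057350-119057420, minus strand: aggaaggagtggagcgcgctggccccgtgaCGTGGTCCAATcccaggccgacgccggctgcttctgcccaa
SDF2L1, chr22:21642084-21642154, plus strand: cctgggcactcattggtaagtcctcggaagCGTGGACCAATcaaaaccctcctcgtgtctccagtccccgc
Of the genes shown, HSPA5 had the widest difference (0.93) and CALR the smallest (0.07), and both hold the first form. The promoters of CANX and ERO1B, which also hold the first form, are not printed.

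The integrated stress response, a second branch of the reply to misfolded proteins that works through the factor ATF4, had somewhat more lower than higher targets. Of its 30 listed targets 18 were lower (51.7% of all genes were) and 12 higher, with a median of -0.17. DDIT3 (CHOP, a stress transcription factor) stood apart from them, at log2 7.33 on Control, 8.36 on LOXL2 WT and 8.98 on LOXL2 delta72, and both of its probe sets were higher. The target DDIT4 was 0.66 lower on LOXL2 WT than on Control, and GDF15 read 8.69, 8.08 and 8.39, with GDF15 probe sets from -0.98 to 0.23. The serine synthesis enzyme PHGDH was 0.52 lower, the cystine transporter SLC7A11 was 0.40 lower, and ASNS, which makes asparagine, differed by -0.43. DDIT3 was therefore the one member past 1.5-fold upward, against DDIT4 and GDF15 downward.

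Cytosolic heat shock genes, which encode the chaperones of the cytosol, had 16 of 22 members higher and a median of 0.26. Among them 4 were at least 1.5-fold higher (1.85% of all genes were). HSPA6, a strictly inducible HSP70, read log2 5.51 on Control, 6.60 on LOXL2 WT and 7.35 on LOXL2 delta72. HSPA1B, an inducible HSP70 that has a near-identical copy, read 9.16, 9.89 and 9.84. HSPB8, a small heat shock protein, read 8.17, 8.87 and 8.92. CHORDC1, an HSP90 co-chaperone, read 10.44, 11.13 and 10.90, and HSPH1 read 10.63, 11.11 and 10.94; each was higher at all 8 of its probe sets. The letters of a heat shock element (GAA, TTC and GAA with 2 bases between neighbours, both strands) were present in 133 promoters (0.487%). They were present in 0.352% of the promoters of genes above the filter. In the list they were found in 5 of the 20 promoters available, those of CHORDC1, DNAJA1, DNAJB6, HSPA6 and HSPA8. The promoters of HSPA6 and CHORDC1 are shown with one match each in capitals.
HSPA6, chr1:161524436-161524508, plus strand: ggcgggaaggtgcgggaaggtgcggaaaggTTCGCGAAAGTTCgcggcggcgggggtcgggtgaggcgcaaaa
CHORDC1, chr11:90223067-90223139, minus strand: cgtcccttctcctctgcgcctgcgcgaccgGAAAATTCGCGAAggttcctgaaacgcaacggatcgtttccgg
Other parts of protein turnover differed less. Of 31 proteasome subunits 23 were higher with a median of 0.10, led by PSMC4 at 0.51, and none passed 1.5-fold. The autophagy protein MAP1LC3B was 0.64 higher and its cargo receptor SQSTM1 was 0.51 higher, while the lysosome and autophagy list as a whole had 14 of 33 higher.

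**Figure D2:**
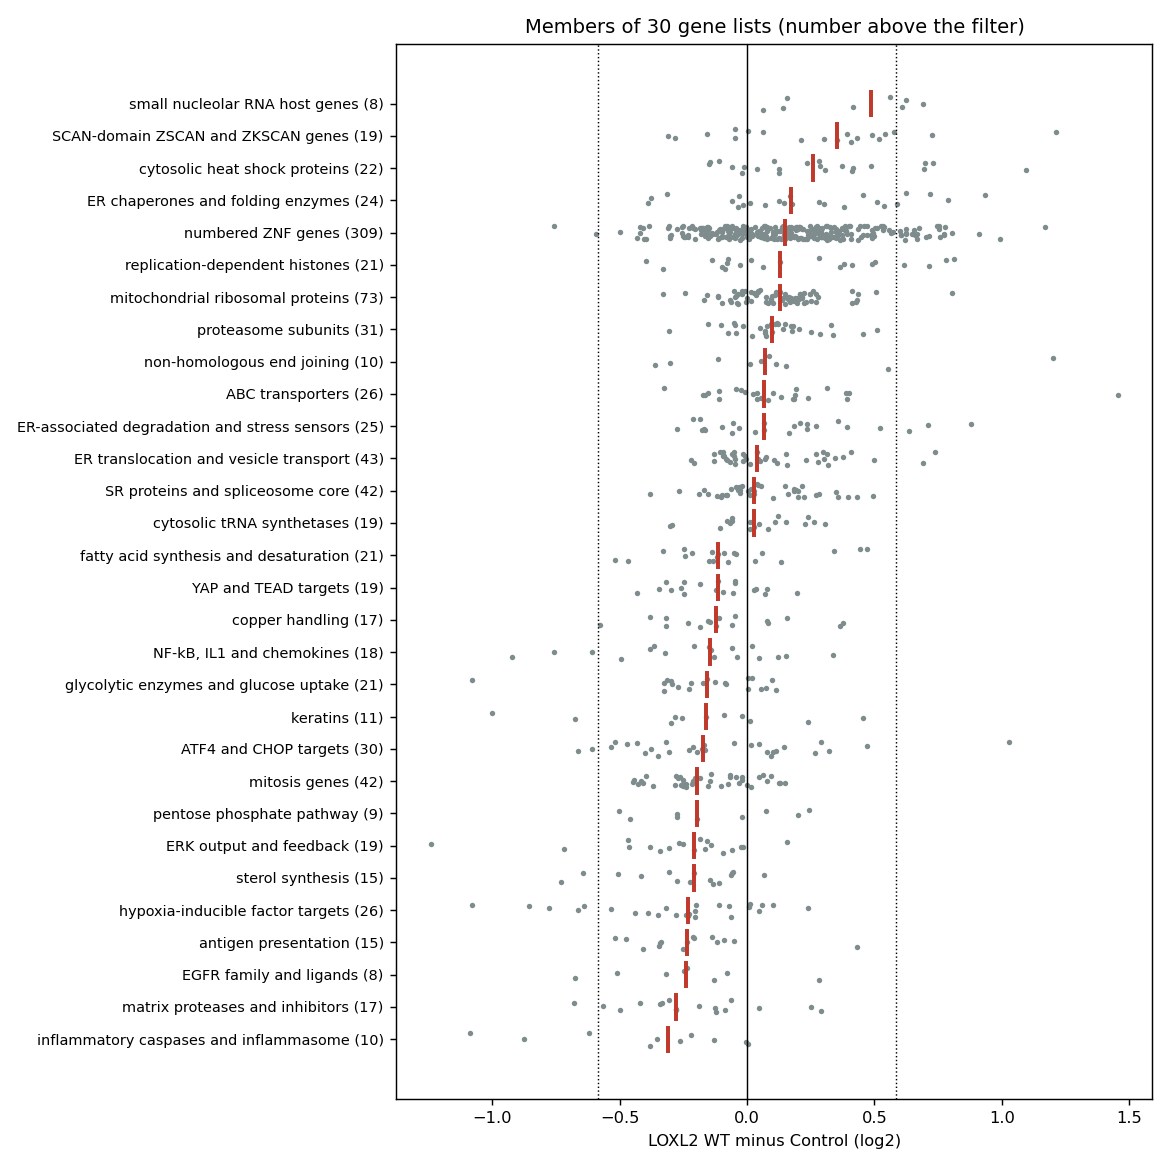
Each point is the difference between the LOXL2 WT and Control arrays (log2) for 1 gene, LOXL2 left out, in the 16 lists with the lowest and the 14 with the highest median among lists of 8 or more genes; red bars are medians and dotted lines mark 1.5-fold. Small nucleolar RNA host genes, SCAN-domain genes and heat shock genes lie to the right, while inflammatory caspases and matrix proteases lie to the left.

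The 2-fold genes above the vector level began with ARRDC4, an alpha-arrestin that limits glucose uptake. It read log2 7.77 on Control, 9.28 on LOXL2 WT and 9.32 on LOXL2 delta72, and its other probe set differed by 1.66. Its close relative TXNIP, which shares that function, read 5.82, 5.57 and 5.58, so the relatives were not read alike. The remaining 8 members of the alpha-arrestin and MLX list were within 1.5-fold. ODC1, the entry enzyme of polyamine synthesis, read 9.97, 11.12 and 11.24. The other polyamine genes were closer to the vector, with SRM (spermidine synthase) 0.39 higher and the ODC1 inhibitor gene OAZ2 0.39 lower.

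Several 2-fold genes are immediate early or growth-signal genes. GEM, a small GTPase that restrains calcium channels, read log2 6.25 on Control, 7.63 on LOXL2 WT and 7.54 on LOXL2 delta72. NR4A3, an orphan nuclear receptor, read 5.09, 6.36 and 5.97, and its dimmer probe sets, below the filter, differed by -0.06 and 0.44. KLF10, a factor induced by TGF-beta, read 8.33, 9.49 and 9.43, and its probe sets differed by 1.15 and 1.17. Of the 25 immediate early genes above the filter, these 3 included, 10 were higher and 15 lower, with a median of -0.05. JUN was 0.60 higher at its brightest probe set and higher at all 4, whereas JUNB was 0.67 lower. IFRD1, a transcriptional co-regulator, read 8.69, 9.77 and 9.68. IL11, a cytokine of the IL6 family, read 6.02, 7.05 and 6.94, but its other probe sets differed by 0.36 and -0.0045.

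The other 2-fold genes were of mixed function, and most were dim. ABCA13, an ABC transporter, read log2 4.80 on Control and 6.26 on LOXL2 WT, and GRIP1, a scaffold protein, read 4.75 and 6.10. DHRS2, a dehydrogenase, read 7.22 and 8.46, and LIG4, the ligase of DNA end joining, read 5.95 and 7.15. LIG4 came from a list of 10 end-joining genes of which 7 were higher, with DCLRE1C, the Artemis nuclease, at 0.55. PRMT6, an arginine methyltransferase, read 7.31 and 8.32, with other probe sets down to 0.20, and SRSF8, a splicing factor, read 5.62 and 6.67. KBTBD8 and SPMIP4 were 1.06 and 1.05 higher and ELAC1 read 5.21 and 6.22, each at the one probe set above the filter. Their dimmer probe sets differed by -0.13, -0.11 and -0.02 in that order. MIR22HG, the host transcript of a microRNA, read 6.92 and 7.94 and was higher at all 4 probe sets, by at least 1.02. Of the 22 genes at least 2-fold higher, LOXL2 included, 15 had only 1 probe set above the filter, and of the 7 with several, 5 were higher at every one.

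**Figure D3:**
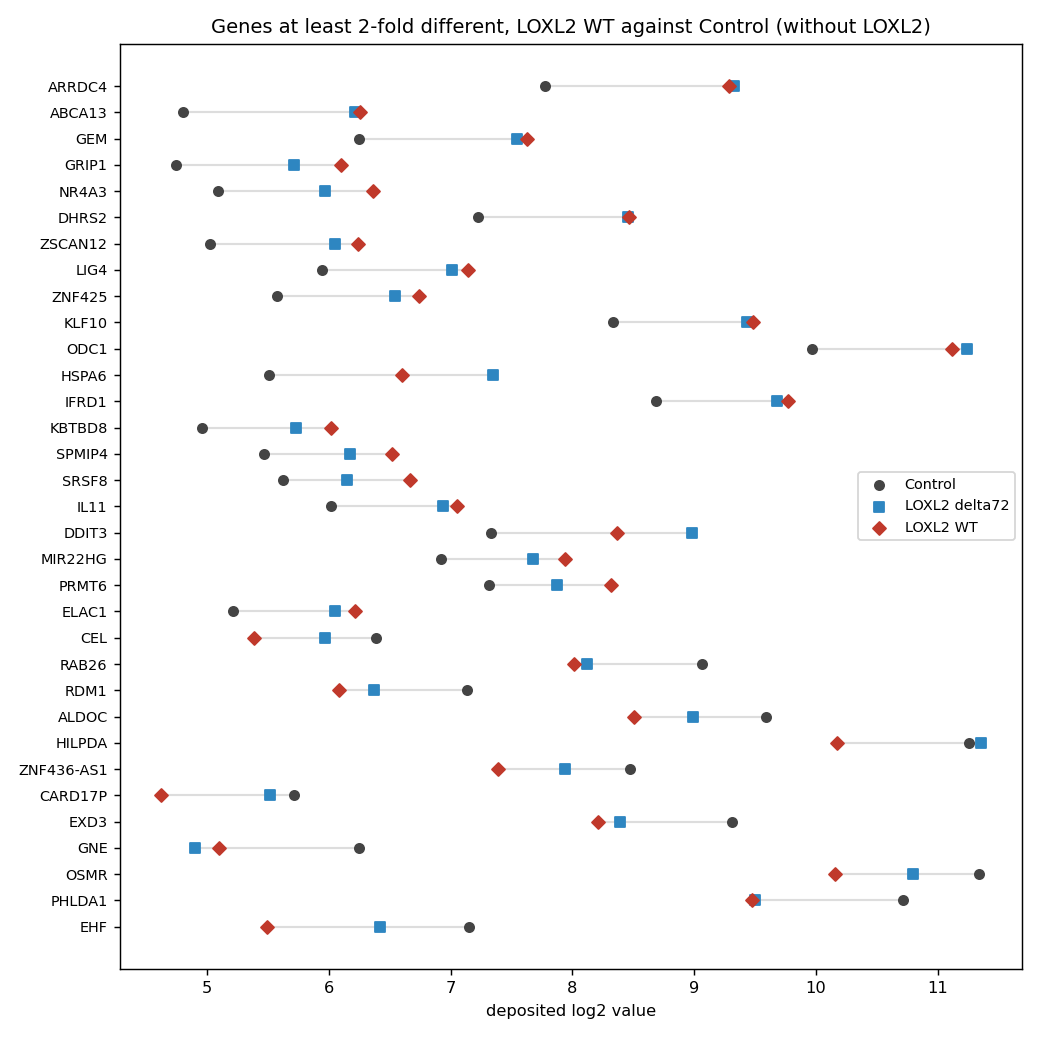
Deposited log2 values of the 33 genes at least 2-fold different, LOXL2 left out, on the Control array (circle), the LOXL2 delta72 array (square) and the LOXL2 WT array (diamond). Every LOXL2 WT diamond lies at least 1 log2 unit from its Control circle, and the LOXL2 delta72 square of HILPDA lies beside the Control circle.

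Zinc finger genes were the largest group with more higher than lower members. Of 309 numbered ZNF genes above the filter, 210 were higher (48.0% of all genes were) and 99 lower, with a median of 0.15. The LOXL2 delta72 array had 206 above Control and 102 below, with a median of 0.10. At least 1.5-fold, 26 were higher and 2 lower on the LOXL2 WT array (1.85% and 0.867% of all genes were). ZNF425 read log2 5.57 on Control and 6.74 on LOXL2 WT, ZNF181 read 5.34 and 6.33, and ZNF557 was 0.91 higher. A dimmer ZNF425 probe set, below the filter, differed by -0.14. With several probe sets, ZNF292 was higher by 0.75 to 0.95 at 4, ZNF571 by at least 0.76 at 3, ZNF37A by 0.67 to 0.89 at 4, ZNF140 by 0.63 to 0.75 at 3 and ZNF189 by 0.67 to 1.07 at 3. The related ZSCAN and ZKSCAN genes, which add a SCAN dimerisation domain, had 14 of 19 higher and a median of 0.35. ZSCAN12 read 5.03 and 6.24, and ZSCAN29 read 6.90 and 7.62 with 0.72 at both probe sets. The dimmer ZSCAN12 probe sets, below the filter, differed by 5e-05 and 0.32. Zinc finger genes resemble each other in sequence, and probe sets could read more than one of them; the probe sequences were not used here.

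Host genes of small nucleolar RNAs, long transcripts whose introns carry the guides of ribosomal RNA modification, were all higher where they passed the filter. These were 8 of the 8, from 10 listed, with a median of 0.49. All 8 were also above Control on the LOXL2 delta72 array, with a median of 0.49. SNHG32 read log2 10.50 on Control and 11.19 on LOXL2 WT, SNHG1 read 9.35 and 9.98, and SNHG9 read 6.47 and 7.08. SNHG12 was 0.56 higher and SNHG8 0.41 higher, and the smallest were SNHG7 (0.16), SNHG29 (0.14) and SNHG11 (0.06). The proteins of the mitochondrial ribosome had 54 of 73 members higher and a median of 0.13, led by MRPL1 at 0.80. Those of the cytosolic ribosome had 23 of 69 higher and a median of -0.02, which turned to 0.01 after lowess scaling. Splicing factors were near balance with 25 of 42 higher and a median of 0.03 that became -0.01 under a common median, among them TRA2B, higher by 0.38 to 0.59 at all 9 probe sets. The replication-dependent histones had 13 of 21 higher, and H2BC5 read 8.89 and 9.71 with all 3 probe sets higher; their transcripts are close copies of each other.

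Among genes with at least 3 probe sets above the filter, 3890 in all, 1022 were higher and 980 lower at every probe set. At least 1.5-fold at every probe set, 13 were higher and 7 lower. Of the higher ones, PNO1, a ribosome assembly factor, read log2 8.62 on Control and 9.53 on LOXL2 WT, and ST7L read 5.88 and 6.68. CCDC112, a coiled-coil protein, read 8.36 and 9.15, RETREG1, a receptor for autophagy of the ER, read 5.82 and 6.51, and POLR3C, a subunit of RNA polymerase III, read 7.99 and 8.63. The nuclear pore protein RANBP2 was 0.56 higher at its lowest probe set, just under 1.5-fold.

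**Figure D4:**
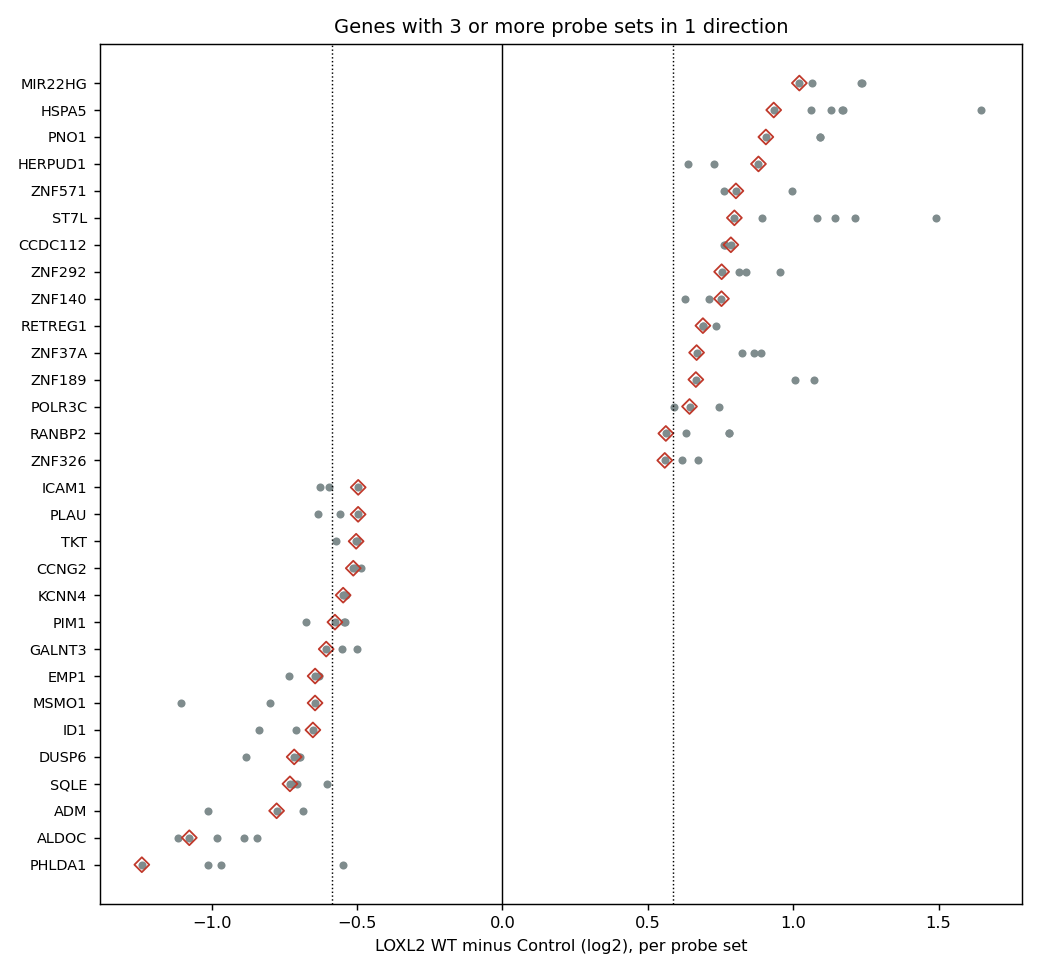
Difference between the LOXL2 WT and Control arrays (log2) for each probe set above the filter (grey) of the 15 genes with the largest smallest difference in each direction; the open diamond is the brightest probe set, and dotted lines mark 1.5-fold. HSPA5 extends to 1.64 and DUSP6 lies between -0.88 and -0.70.

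The lower genes began with EHF, an epithelial ETS factor, which read log2 7.15 on Control, 5.49 on LOXL2 WT and 6.42 on LOXL2 delta72 at the one of its 8 probe sets that passed the filter. The 7 dimmer EHF probe sets differed by -0.94 to 0.38. The difference of -1.66 at the brightest was the farthest below the vector of any gene kept. Of the 16 listed factors of squamous epithelium above the filter, EHF included, 8 were higher and 8 lower. GRHL1, an epidermal factor, was 0.71 higher with a second probe set at 0.03, SOX2 was 0.43 lower, and TFAP2A was lower at all 3 probe sets, by 0.56 at the brightest. KRT15, a basal keratin, read 11.43, 10.43 and 10.54, a difference of -0.9999 that was just short of 2-fold, and KRT14 read 7.76, 7.08 and 7.10. Of 11 keratins 8 were lower, with a median of -0.16, and KRT10, a keratin of differentiated layers, was 0.46 higher. CSTA, a cornified envelope inhibitor of proteases, read 11.02, 10.27 and 10.41. It was the one of 20 differentiation genes past 1.5-fold, downward (0.867% of all genes were).

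Genes that mark a mesenchymal state were mostly near the vector. Of 13 above the filter, 4 were higher and 9 lower, with a median of -0.10 that became 0.02 under a filter at the 60th percentile. SNAI2, a repressor of epithelial genes, read log2 9.93 on Control, 10.53 on LOXL2 WT and 10.46 on LOXL2 delta72. VIM (vimentin) read 7.81, 7.59 and 7.98, CDH2 (N-cadherin) read 5.78, 5.63 and 5.76, and ACTA2 read 6.84, 6.50 and 6.54. VIM had a second probe set at 0.05. SNAI2 was therefore the one member past 1.5-fold, upward (1.85% of all genes were). Junction genes were mixed: 9 of 20 genes of adherens and tight junctions were higher, with MARVELD2 at 0.54 and NECTIN4 at -0.54, and 5 of 11 desmosome genes were higher, with DSC3 at -0.53. Of 21 integrin and focal adhesion genes 15 were lower, with ITGB5 at -0.58.

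Genes that report on growth factor signalling through ERK were nearly all lower. Of 19 such genes 18 were lower (51.7% of all genes were), with a median of -0.21. Among them 2 were at least 1.5-fold lower (0.867% of all genes were). Against the same Control array, LOXL2 delta72 had 15 of the 19 lower, with a median of -0.16. PHLDA1, a gene induced by that pathway, read log2 10.71 on Control, 9.47 on LOXL2 WT and 9.50 on LOXL2 delta72, and was lower at all 4 probe sets, from -1.24 to -0.55. DUSP6, the phosphatase that feeds back on ERK, read 8.29, 7.58 and 7.68, and was lower at all 4. SPRY1, ETV5 and ETV4, feedback and target genes of the same pathway, differed by -0.46, -0.47 and -0.38. Upstream, EGFR read 10.55, 9.88 and 10.25 and was lower at all 6 probe sets, and NRG1, a ligand of the same receptor family, read 10.98, 10.47 and 10.47. Of the 8 EGFR family members and ligands above the filter, 7 were lower, and the ligand HBEGF was 0.28 higher. ID1, a target of BMP signalling, read 9.90, 9.24 and 9.21, and EMP1, a membrane protein, read 10.72, 10.08 and 10.15.

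Inflammatory genes lay on the same side. Of 18 NF-kB, IL1 and chemokine genes 13 were lower, with a median of -0.14. IL1B read log2 10.57 on Control, 9.65 on LOXL2 WT and 9.93 on LOXL2 delta72, and IL1A read 11.70, 10.94 and 11.19. The list of inflammatory caspases and inflammasome genes, which process IL1B, had 9 of 10 lower and a median of -0.31. CASP1 read 6.06, 5.19 and 5.20, and CASP4 read 9.52, 8.90 and 8.92 and was lower at all 6 probe sets. CARD17P, a pseudogene close to CASP1 in sequence, read 5.71, 4.63 and 5.52. The mean of CARD17P, 5.28, lay just above the filter and its LOXL2 WT value lay below the filter. Its 2 dimmer probe sets differed by 0.10 and 0.17. ICAM1, an adhesion receptor induced by NF-kB, was lower at all 3 probe sets, by 0.50 at the brightest. Of 15 antigen presentation genes 14 were lower with a median of -0.23, none past 1.5-fold, while the interferon-stimulated genes were balanced at 11 higher and 11 lower. OSMR, the receptor of oncostatin M, read 11.33, 10.15 and 10.80, but its other probe sets differed by 0.18 and -0.02. Its co-receptor IL6ST was 0.50 higher.

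Targets of the hypoxia-inducible factors, which respond to low oxygen, had 20 of 26 members lower, a median of -0.23, and 5 at least 1.5-fold lower (0.867% of all genes were). HILPDA, a lipid droplet protein, read log2 11.25 on Control, 10.17 on LOXL2 WT and 11.36 on LOXL2 delta72, and its probe sets differed by -1.08 and -1.05. ANKRD37 read 9.98, 9.12 and 10.41, and ADM (adrenomedullin, a vasodilator peptide) read 12.60, 11.83 and 12.38, with all 3 ADM probe sets lower. For HILPDA and ANKRD37 the LOXL2 WT array was low against both other arrays. The remaining members past 1.5-fold were DDIT4, which is also on the ATF4 list, and BHLHE40, a circadian repressor, at 8.76, 8.12 and 8.59. Over the same 26 genes the LOXL2 delta72 array, against the same Control array, had a median of 0.03. VEGFA (0.10 at the brightest of 9 probe sets) and LDHA (0.01) were close to the vector.

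Glycolytic enzymes, several of which are hypoxia targets, had 14 of 21 lower and a median of -0.16. ALDOC, an aldolase, read log2 9.58 on Control, 8.51 on LOXL2 WT and 8.99 on LOXL2 delta72, and was lower at all 5 probe sets, from -1.11 to -0.84. PGK1, SLC2A1 (the main glucose carrier) and GPI were lower by smaller amounts, at -0.32, -0.31 and -0.30. The pentose phosphate enzymes had 6 of 9 lower, with TKT (transketolase) at -0.50, and oxidative phosphorylation genes were near balance with 18 of 41 higher and none past 1.5-fold. The hypoxia response core (ACGTG, either strand) is short and common: it was found in 21.6% of all promoters, in 15 of 22 hypoxia target promoters (68.2%) and in 8 of 20 glycolytic promoters. It was also found in many promoters of lists not chosen for hypoxia, such as ER translocation and vesicle transport (26 of 39, or 66.7%) and matrix proteases (7 of 10). ANKRD37 and ALDOC are shown because both held it and both were lower on the LOXL2 WT array.
ANKRD37, chr4:185396650-185396714, plus strand: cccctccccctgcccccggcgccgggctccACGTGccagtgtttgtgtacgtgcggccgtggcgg
ALDOC, chr17:28577100-28577145, minus strand: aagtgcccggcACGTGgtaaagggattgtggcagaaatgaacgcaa

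Sterol synthesis was lower almost throughout. Of 15 enzymes 14 were lower, with a median of -0.21. On the LOXL2 delta72 array all 15 were below Control, with a median of -0.23. SQLE (squalene epoxidase) read log2 10.15 on Control, 9.42 on LOXL2 WT and 9.45 on LOXL2 delta72, with 4 probe sets between -0.73 and -0.61. MSMO1, a sterol oxidase, read 11.58, 10.93 and 10.92, with 3 probe sets between -1.11 and -0.64. FDPS was 0.51 lower and MVD 0.41 lower. Genes of sterol uptake and control had 11 of 15 lower, with INSIG1, the sterol sensor partner, at -0.45, and fatty acid genes had 15 of 21 lower, with ACSS2 at -0.52 and SCD at -0.47 against FADS1 at 0.47. The sterol response element letters TCACNCCAC (either strand) were found in 1.15% of all promoters and in 1.03% of those of genes above the filter. They were found in 0 of the 13 sterol synthesis promoters available.

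Mitosis genes were mostly lower, by small amounts. Of 42 mitosis genes 33 were lower, with a median of -0.20 and none past 1.5-fold. The LOXL2 delta72 array had 38 of the 42 below Control, with a median of -0.17. CDC25B, CCNB2 and AURKB, which drive mitotic entry and spindle attachment, differed by -0.45, -0.44 and -0.43. Of 40 genes of DNA replication and the G1/S step, 19 were higher and 21 lower with a median of -0.01. Among them 3 were at least 1.5-fold higher (1.85% of all genes were). CDC25A, the phosphatase of S-phase entry, read log2 7.60 on Control, 8.26 on LOXL2 WT and 8.12 on LOXL2 delta72, CDC6, a licensing factor, read 9.24, 9.87 and 9.69, and CCNE2 (cyclin E) was 0.63 higher. CDC6 had a second probe set at 0.04. The cell cycle genes homology region (TTTGAA, either strand) was found in 15.4% of all promoters and in 9.75% of those of genes above the filter. It was found in 24 of 35 mitosis promoters (68.6%), and the CCNB2 promoter carries it close to the start.
CCNB2, chr15:59105087-59105145, plus strand: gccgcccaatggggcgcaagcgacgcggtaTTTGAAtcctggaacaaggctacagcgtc

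Of the other genes at least 2-fold lower, GNE, the entry enzyme of sialic acid synthesis, read log2 6.25 on Control, 5.09 on LOXL2 WT and 4.90 on LOXL2 delta72. The dimmer GNE probe sets, below the filter, differed by 0.05 and -0.08. ST6GALNAC2, a sialyltransferase, was 0.68 lower, and 8 of the 14 sialic acid genes above the filter were lower. RAB26, a Rab GTPase of secretory vesicles, read 9.06, 8.01 and 8.12, whereas SYTL2, a synaptotagmin-like partner of such vesicles, was 0.87 higher. RDM1, a RAD52-related protein, was lower at all 6 probe sets, by 1.05 at the brightest. EXD3 and ZNF436-AS1 were lower by 1.10 and 1.09, and CEL, a lipase, read 6.39, 5.39 and 5.97. EXD3 had a probe set at 0.03. Of the 12 genes at least 2-fold lower, 7 had several probe sets above the filter and 5 of those were lower at every one.

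The LOXL2 WT array was then set against both other arrays at once. It lay at least 1.5-fold above both for 2 genes and at least 1.5-fold below both for 8 genes. By the same measure the Control array lay above both LOXL2 arrays for 39 genes and below both for 118, and the LOXL2 delta72 array lay above both others for 2 and below both for 0. The Control array thus stood apart for the most genes, and it enters every difference given here. The genes with LOXL2 WT above were TADA2A, an adaptor of histone acetyltransferases, at log2 5.24 on Control, 6.13 on LOXL2 WT and 5.46 on LOXL2 delta72, and ZNRF3, a ligase that removes Wnt receptors, which was 0.59 above a Control value of 5.41 with 5.37 on LOXL2 delta72. Both are dim, with 1 probe set above the filter each, and a dimmer TADA2A probe set differed by 0.52. The genes with LOXL2 WT below were HILPDA, EHF, CARD17P, ANKRD37 and OSMR, with the values given above, TNKS2, SAA1 and PER1. TNKS2 (tankyrase, which regulates axin) read 6.73, 6.07 and 6.97, and its 3 dimmer probe sets differed by -0.42 to 0.46. SAA1 (serum amyloid A) read 7.72, 6.88 and 7.51. PER1, a circadian gene, read 7.81, 7.12 and 7.71, with a second probe set at 0.17. ADM and CEL followed just inside the threshold. On the higher side, SRSF8, PRMT6 and KLLN were also farthest on the LOXL2 WT array, and TP53I3, a p53 target, read 5.64, 6.12 and 5.65.

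**Figure D5:**
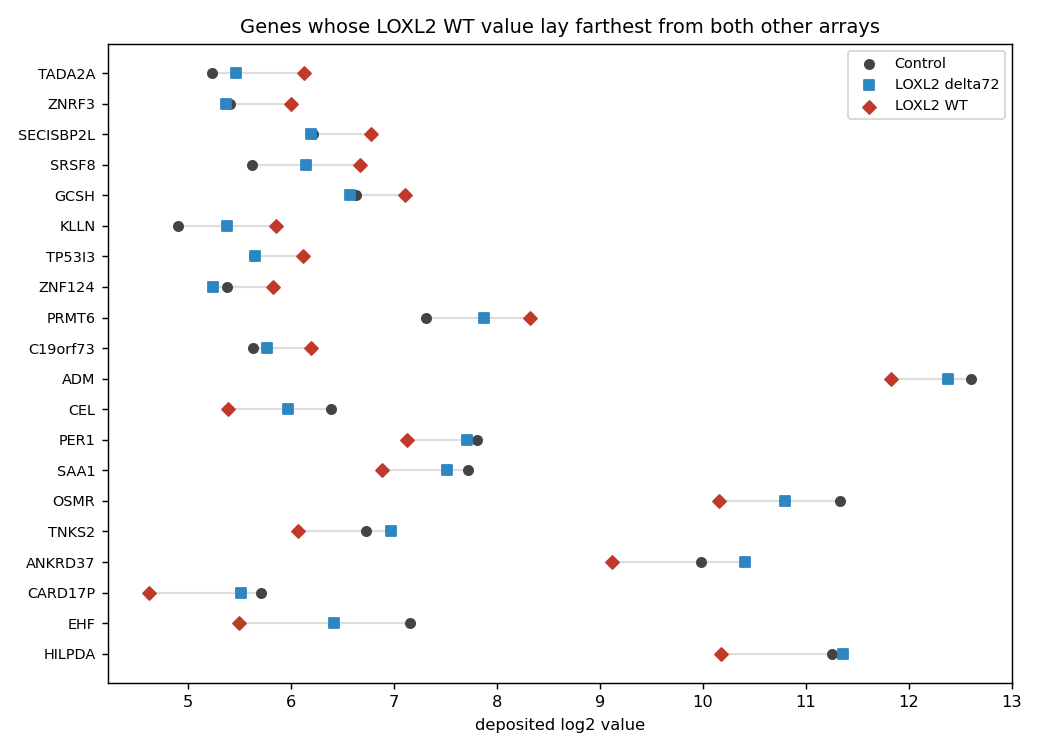
Deposited log2 values on the 3 arrays for the 10 genes in each direction whose LOXL2 WT value (diamond) lay farthest from the nearer of the Control (circle) and LOXL2 delta72 (square) values. HILPDA and ANKRD37 have their LOXL2 WT value below a Control and LOXL2 delta72 pair.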

How the data were processed

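The members of the comparison and the gene lists were chosen with earlier results of these data known. Biotinylated cRNA from KYSE150 cells was hybridised to 3 Affymetrix arrays. The values are the log2 values that the authors deposited; the submitters' processing notes name Affymetrix Expression Console and Partek, and the normalization is not given in the sources used here. Of 49293 non-control probe sets, 44988 had 1 gene symbol in the platform annotation, 1832 had several and 2473 were not listed. Differences were taken per gene as described above, with no test and no p-value, using Python 3.11.15, pandas 2.3.3 and numpy 2.4.6, and were tested on simulated data. Genes named in the text were LOXL2 and its family, the 2-fold genes, the 15 genes in each direction with 3 or more probe sets in 1 direction and the largest smallest difference, the 10 in each direction farthest from both other arrays, list members (all where up to 8 passed the filter, otherwise the 6 largest differences) and genes whose promoter is printed. A few further members (VEGFA, LDHA, ASNS and markers) were chosen after their values were seen. Alternatives were a common median, quantile and lowess scaling (fraction 0.3, statsmodels 0.14.6), the median over probe sets, no filter and a filter at the 60th percentile. The number of arrays limits the precision.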

Additional observations from a re-analysis of the deposited data

Results flagged for a closer look

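Probe sets without a single gene symbol were outside the comparison. Of 2387 such probe sets above the filter, 49 were at least 1.5-fold higher and 32 lower, and 5 were at least 2-fold higher and 0 lower on the LOXL2 WT array than on the Control array; no test was possible with 1 array per group. Probe set 11757367_s_at differed by 2.889 (log2), from 4.33 on Control to 7.22 on LOXL2 WT and 7.91 on LOXL2 delta72. Probe set 11715311_s_at differed by 1.937, with values of 4.11, 6.04 and 5.97. Probe set 11740449_a_at, which the annotation does not list, differed by 1.70. The differences of 11741830_s_at and 11742669_s_at were 1.116 and 1.084. These probe sets are named by their identifiers only.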

How the results depend on the processing

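No paired analysis was possible because each group has 1 array and the labels carry no replicate numbers, and leaving out an array leaves no comparison. Each result was recomputed under 6 settings, of which those of the LOXL2 WT array against both others were chosen after seeing the data. A filter at the 60th percentile gave 19 genes at least 2-fold different instead of 34, 12 higher instead of 22 and 7 lower instead of 12. The median over probe sets gave 7 lower. The genes 1.5-fold above both other arrays were 1 under a common median, 5 with no filter and 0 under the 60th percentile filter, and those below both were 5 under that filter. Of the list medians, 336 comparisons with an alternative stayed within the standard error of the median, 21 moved, and 3 changed sign or became 0 in lists with at least 2 in 3 members on one side: the mesenchymal list to 0.0177 under the 60th percentile filter, and the cytosolic ribosomal proteins to 0 under quantile and 0.0137 under lowess scaling. Over all settings 15 of 60 list medians, reported between -0.10 and 0.04, took both signs. Of the values for named genes, 2134 stayed and 136 moved. No named gene changed sign past 1.5-fold under these settings. Small differences of dim genes are limited by signal over background, which was lower on the LOXL2 WT array by a median of 0.10.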

Other observations

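Other lists held mostly small differences. Of 19 cytosolic tRNA synthetases 12 were higher (median 0.03, or -0.02 under a common median), of 20 NRF2 target and AKR genes 8 were higher with AKR1B10, an aldo-keto reductase, 0.59 higher, and of 25 p53 targets 12 were higher and 13 lower. TIGAR, a p53 target that lowers glycolytic flux, read log2 7.46 on Control and 8.33 on LOXL2 WT, and AEN, a nuclease induced by p53, read 7.31 and 7.96, while GDF15 lay on the other side. Of 26 ABC transporters 17 were higher, and of 20 genes of homologous recombination and the Fanconi pathway 8 were higher with none past 1.5-fold.

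Developmental signalling lists had more lower than higher members, where 51.7% of all genes were lower. Their medians were small: -0.07 for Notch, -0.11 for YAP and TEAD, -0.07 for SMAD and TGF-beta, and -0.04 for Wnt. Of 21 Notch genes 15 were lower, with NUMB, a Notch inhibitor, at -0.50 and the target HES1 at -0.46 and lower at all 4 probe sets. Of 19 YAP and TEAD targets 14 were lower, with the phosphatase PTPN14 at -0.43. Of 20 SMAD and TGF-beta feedback genes 13 were lower, with the inhibitory SMAD7 at -0.57 and the co-repressor SKIL at 0.60. Of 19 Wnt and tankyrase genes 14 were lower. Besides TNKS2, those past 1.5-fold downward (0.867% of all genes were) were LGR4, a receptor of R-spondins, at -0.60 and the ligand WNT7B at -0.59. Of 27 actin cytoskeleton genes 17 were lower (median -0.10). Of 9 sensors of foreign nucleic acid 5 were lower, near the share over all genes, with STING1 at -0.36.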
